A study of Mus musculus with 30 samples.

Results

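Pyruvate dehydrogenase and the calcium-sensitive dehydrogenases of the mitochondrial matrix were followed through 10 genes, chosen by gene name: Pdha1, Pdhb, Pdk1, Pdk2, Pdk3, Pdk4, Pdp1, Pdp2, Idh3a and Ogdh. The arrays carried 18 probes for them. The single probe of Pdk3 was not well above background on any of the 30 arrays, and the other 9 genes were among the 23342 genes tested. The rule itself uses names of genes and no measured level.

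Each array held the transcripts of 1 fibre from a fast muscle of the hindlimb, the extensor digitorum longus. The mice were CD1 males, injected at 8 weeks of age, and wild type mice were of matching age. In all, 4 states were compared, each at day 14 and at day 7: fibres whose muscle had received an adeno-associated virus (AAV) carrying MCU (4 and 3 fibres), uninjected wild type fibres (4 and 4), fibres with an AAV hairpin that silences MCU (4 and 3), and transfected control fibres (4 and 4). The labels call the last of these both a hairpin against luciferase and a virus with no insert, and do not settle which. MCU is the pore of the mitochondrial calcium uniporter. All fibres had been freed with collagenase and picked by hand; in injected muscles they were picked by the green fluorescence of the virus, and injected fibres were kept only where quantitative PCR on part of their RNA showed the intended change in MCU. The labels do not say which fibres share a mouse, so the p-values rest on the spread from fibre to fibre, which may be partly technical.

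The pyruvate dehydrogenase complex turns pyruvate into acetyl-CoA and so joins glycolysis to the tricarboxylic acid cycle. Kinases of the Pdk family phosphorylate its E1 component and switch it off, and the phosphatases Pdp1 and Pdp2 remove the phosphate. Calcium in the matrix acts on enzyme activity: it stimulates the Pdp1 phosphatase, isocitrate dehydrogenase and oxoglutarate dehydrogenase. What is measured here is the transcripts, which do not show how phosphorylated or how active the enzymes were.

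Levels are log2 signal relative to the 75th percentile of the probes on the array, and a difference of 1 is a doubling of signal. A gene passed at a Benjamini-Hochberg adjusted p under 0.05 over all genes tested. Across arrays the 75th percentile of signal lay between 83.2 and 138.4 units, and 49.4% to 59.5% of probes stood well clear of background. Precision is limited by how many arrays each group has. All 7 fast-fibre markers (Myh4, Myh1, Actn3 and others) were well above background on all 30 arrays. So were 4 of 7 markers of slow or oxidative fibres, whose summed linear level was 5.58 to 94.7, against 1341 to 4085 for the fast markers. Pdgfra of fibroblasts and Myf5 of satellite cells were well above background on no array, but other markers of those lists were detected. Cdh15 of satellite cells was on all 30, and the summed linear level of fibroblast markers ranged from 0.23 to 8.89. Of 5 endothelial markers 1 was on all arrays (summed level 9.05 to 15.9), as was 1 of 4 adipocyte markers (0.47 to 1.40). Macrophage and myeloid markers were also present, 4 of 6 of them on all arrays (summed linear level 237 to 351), though Adgre1 was detected in no fibre of 4 of the 8 groups. Each slide held both states of a comparison at 1 day, vector fibres in array columns 1 and 2 and controls in columns 3 and 4. Array column and vector therefore cannot be told apart in the MCU comparisons. Transfected control and wild type fibres, and the 2 days, never shared a slide. Mcu itself went with its labels, which is no independent check, since injected fibres had been kept for their change in MCU. It averaged 6.36 in MCU-vector fibres and 2.46 in wild type fibres at day 14, and 3.27 against 2.67 at day 7, where the 3 vector fibres all lay above the wild type but the difference did not pass (0.60, adjusted p = 0.999). In silenced fibres it averaged -0.52, against 2.55 in transfected controls, at day 14, and 0.49 against 2.57 at day 7, and passed at both (adjusted p at most 0.0016).

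With MCU raised, none of the 9 measured genes passed. In MCU-vector against wild type fibres, averaged over both days, 0 of 9 were called by limma, beside 1.13% of all genes, and 1 had an unadjusted p under 0.05. At day 14 it was 0 of 9 beside 0.428% of all genes, with none under 0.05 unadjusted, and at day 7 it was 0 of 9 beside 0.574%, with 1 under 0.05 unadjusted. The median difference of the 9 was -0.03 and that of all genes was -0.02.

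The E1 subunits did not pass. Pdha1, the catalytic alpha subunit, averaged 3.33 in MCU-vector fibres and 3.43 in wild type fibres, a difference of -0.10 ± 0.18 (SE) with a 95% interval of -0.47 to 0.27. Pdhb, the beta subunit, averaged 4.11 in vector fibres and 4.30 in wild type fibres, with an interval of -0.42 to 0.04. Among the kinases, Pdk2, the main isoform of many tissues, had the narrowest interval of the 9, -0.31 to 0.05. Its mean was 6.53 in vector fibres and 6.66 in wild type fibres. A second Pdk2 probe, 251 bases away, had the lowest unadjusted p of the members' probes in this comparison, at -0.29 ± 0.09 (SE, unadjusted p = 0.0031, adjusted p = 0.127). At day 14 it lay at 4.22, 4.17, 4.39 and 4.30 in vector fibres, against 4.69, 4.53, 4.72 and 4.68 in wild type fibres. The groups were apart there, but the difference of -0.38 did not pass (adjusted p = 0.189). Pdk1, a kinase known to be induced in hypoxia, differed by 0.08 (interval -0.29 to 0.45). Pdk4, the kinase known to rise in fasting and exercise, differed by 0.03, but its interval was wide, -0.65 to 0.70, or 0.64-fold to 1.63-fold. The tricarboxylic acid cycle enzymes Idh3a, the alpha subunit of NAD-dependent isocitrate dehydrogenase, and Ogdh, the E1 subunit of oxoglutarate dehydrogenase, differed by -0.03 (interval -0.39 to 0.33) and -0.13 (interval -0.46 to 0.19). Ogdh too had a probe apart from the one used for the gene: 2339 bases away, it gave -0.35 over both days (unadjusted p = 0.0477, adjusted p = 0.381) and -0.62 at day 14 (adjusted p = 0.284), where vector and wild type fibres overlapped. These intervals, for the average over both days, do not show that the transcripts were equal. With the probes that represent the genes other than Pdk4 and Pdp2, they hold no change above about 0.62 on the log2 scale in either direction. Intervals of single days were wider and reached 0.70 for Pdk1 at day 14 and 0.84 for Pdp1 at day 7.

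**Figure D1:**
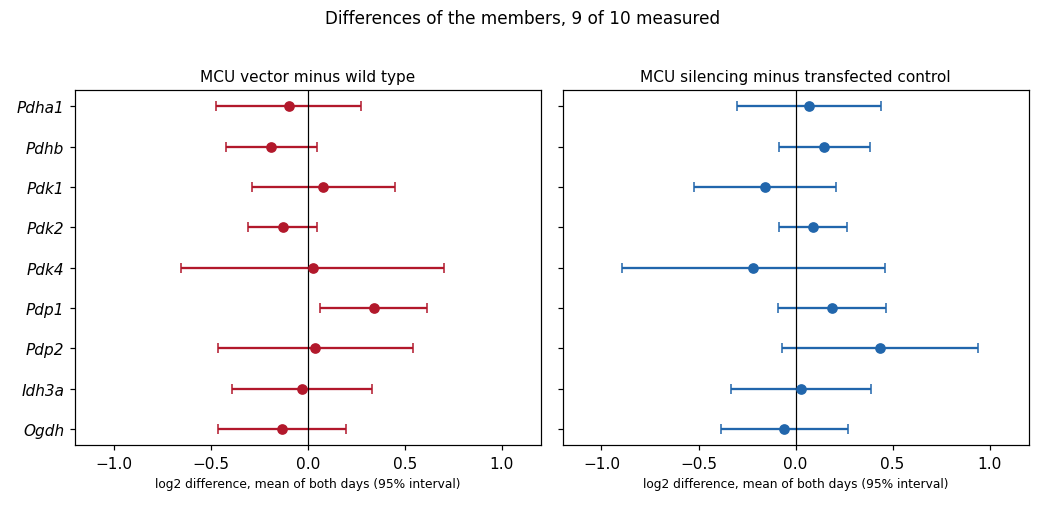
Log2 differences of the 9 measured genes, averaged over both days, with 95% intervals from the fit across all genes: MCU vector minus wild type on the left, MCU silencing minus transfected control on the right. The intervals of Pdk4 and Pdp2 are the widest and that of Pdk2 is the narrowest, and only that of Pdp1 on the left lies to 1 side of 0 before adjustment.

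Pdp1, the phosphatase that calcium stimulates, had the largest difference of the 9 between MCU-vector and wild type fibres over both days; at day 14 that of Pdk4 was larger, -0.33 against 0.25. At day 14 its level was 2.76, 2.89, 2.93 and 3.05 in MCU-vector fibres, against 2.59, 2.99, 2.53 and 2.53 in wild type fibres. At day 7 it was 3.09, 3.62 and 3.33 in vector fibres, against 3.22, 3.10, 2.24 and 3.10 in wild type fibres. The groups overlapped at both days, since 1 wild type fibre was high at day 14 and another was low at day 7. The difference was 0.34 ± 0.13 (SE, 1.26-fold, interval 1.04-fold to 1.53-fold), with an unadjusted p of 0.0185 and an adjusted p of 0.256. Among the alternatives tried it passed only when arrays were weighted by quality (0.40, adjusted p = 0.0244). A second Pdp1 probe, 520 bases away on chromosome 4, gave 0.37 (adjusted p = 0.169), while the third probe, 2108 bases away, gave 0.01 (adjusted p = 0.975). Pdp2, the other phosphatase, differed by 0.04 (interval -0.46 to 0.54).

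With MCU silenced, none of the 9 passed either. In silenced against transfected control fibres over both days 0 of 9 were called by limma, beside 14.1% of all genes, and none had an unadjusted p under 0.05, a level reached by 30% of all genes. At day 14 it was 0 of 9 beside 3.46% of all genes, with 1 under 0.05 unadjusted, and at day 7 it was 0 of 9 beside 13.4%, with none. The median absolute difference was 0.15 for the 9 and 0.21 for all genes.

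Pdha1 averaged 3.59 in silenced fibres and 3.52 in transfected controls, with an interval for the difference of -0.30 to 0.44. Pdk2 differed by 0.09 (interval -0.09 to 0.27), Pdk1 by -0.16 (interval -0.52 to 0.21), Idh3a by 0.03 (interval -0.33 to 0.39) and Ogdh by -0.06 (interval -0.39 to 0.27). The 2 phosphatases had the largest positive differences, 0.19 for Pdp1 (interval -0.09 to 0.46) and 0.44 for Pdp2 (interval -0.07 to 0.94). At day 14 Pdp1 was 3.24, 3.19, 3.34 and 3.26 in silenced fibres, against 3.14, 2.55, 3.00 and 3.07 in transfected controls. These groups were apart, but the difference of 0.32 did not pass (adjusted p = 0.363). How many of all genes had groups apart, here or in other comparisons, was not counted. Pdp2 at day 14 was -0.84, -0.81, 1.08 and -0.32 in silenced fibres, against -0.95, -1.11, -1.45 and -0.14 in transfected controls. The fibre at 1.08 set much of its difference: without it the value over both days was 0.22, against 0.44 with it. A second Pdp2 probe gave -0.18 (adjusted p = 0.64).

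**Figure D2:**
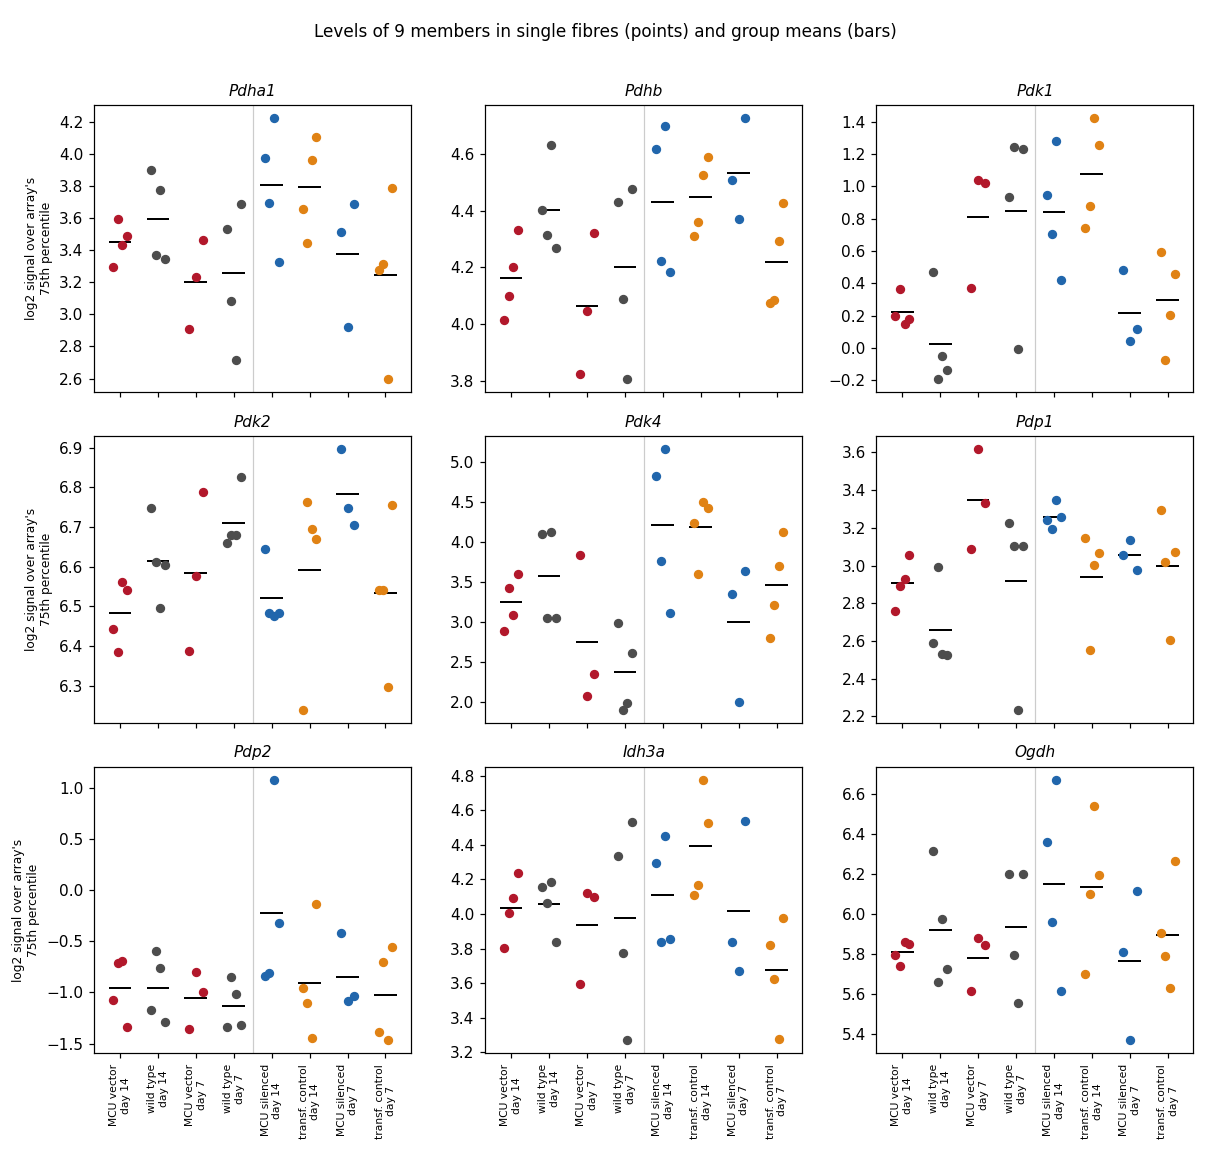
Levels of the probe that represents each of the 9 measured genes, in log2 signal over the array's 75th percentile, by group; points are single fibres, bars are group means, and vertical scales differ. MCU-vector and wild type fibres of a day, and silenced and transfected control fibres, overlap in every panel except Pdp1 in silenced fibres of day 14, and Pdk4 and Pdp2 show the widest scatter within groups.

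The difference between the effect of the MCU vector and that of silencing passed for none of the 9 (0 called by limma, beside 11.2% of all genes; 1, Pdhb, with an unadjusted p under 0.05). Nor did the difference of either effect between day 14 and day 7 pass: 0 of 9 for the vector beside 0.201% of all genes and 0 of 9 for silencing beside 4.13%, with none under 0.05 unadjusted in both. The largest such day differences were -0.71 for Pdk4 under the vector (interval -2.06 to 0.64) and -0.63 for Idh3a under silencing (interval -1.35 to 0.10), so changes of this size between the days were not excluded.

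The answer for Pdhb depended on the probe. The gene was represented by its brightest probe, at chr14:8998505-8998562 on the minus strand of build mm9, where silenced fibres averaged 4.48 and transfected controls 4.33 (difference 0.15, adjusted p = 0.411 in a fit of all 33164 probes). A second probe shares 15 bases with it, at chr14:8998548-8998607. Its mean was 3.40 in silenced fibres and 4.03 in transfected controls, a difference of -0.63 ± 0.14 (SE, adjusted p = 0.0042). The third probe, placed by the array's design on the cDNA AK084507 at chr14:9003605-9003664, averaged -2.17 in silenced fibres and 0.08 in transfected controls, a difference of -2.25 ± 0.45 (SE, adjusted p = 0.0022). It was well above background in 5 of 7 silenced fibres and in all 8 transfected controls, and its size depended on the background correction: normexp gave -0.95 (adjusted p = 6.08e-06), and the other alternatives kept the call too. In all, 3 of the 17 probes above background passed in this comparison, beside 13.4% of all probes. The remaining probe was the third Pdp1 probe, 2108 bases from the one used for the gene, which rose by 0.31 (adjusted p = 0.0168). That call was lost when arrays were scaled by their median (0.19, adjusted p = 0.18). For the MCU vector this probe gave 0.01. The second Pdp1 probe, at 0.37 for the vector, gave 0.08 here (adjusted p = 0.728). No probe passed in MCU-vector against wild type fibres, 0 of 17 beside 1.04% of all probes, with 4 under 0.05 unadjusted.

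Single fibres show where the Pdhb probes part. In the 7 silenced fibres the third probe ranged from -4.96 to -1.13. It lay at 0.02, 0.49, -0.04 and 0.21 in transfected controls of day 14, and at -0.05, 0.51, -0.75 and 0.24 in those of day 7. It ranged from -4.48 to -1.05 in MCU-vector fibres and from -3.51 to -1.02 in wild type fibres. Every transfected control fibre was therefore above every other fibre, and the probe was not well above background in 2 silenced fibres, 1 MCU-vector fibre and 1 wild type fibre. Against wild type, transfected controls were higher by 2.18 (adjusted p = 0.00066; 1.07 with normexp) with the third probe and by 0.78 (adjusted p = 0.00013) with the second, but by 0.03 with the probe that represents the gene. Within groups the second probe followed the representing one (r = 0.877 over 30 fibres, a description with group means taken off) and the third did not (r = 0.105). For the third probe the vector effect also differed from the silencing effect, by 2.03 (adjusted p = 0.0434; 1 of 17 probes beside 10.7% of all probes, with the Ogdh probe given above at -0.70, adjusted p = 0.0622), a call kept in 14 of 34 alternatives (0.95 to 2.45) and lost in those that left out any of 20 single fibres. The cause of the disagreement was not tested. Read as the mean of its probes, Pdhb was lower in silenced fibres (-0.91, adjusted p = 0.0021); read from its brightest probe it was not.

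**Figure D3:**
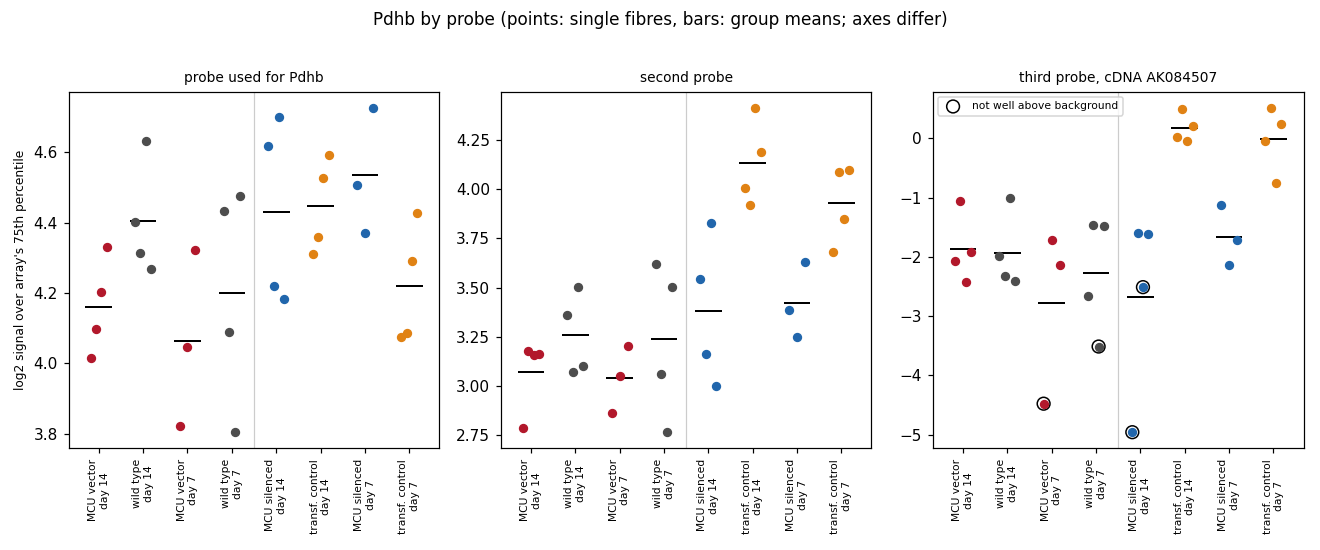
The 3 probes of Pdhb in 30 single fibres, in log2 signal over the array's 75th percentile, by group; bars are group means and open circles mark fibres where the probe was not well above background. Transfected controls lie between -0.75 and 0.51 with the third probe, above all other fibres, and between 3.68 and 4.41 with the second, while with the probe used for the gene they overlap the other groups.

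Pdk4 was the member that varied most, and mainly outside the MCU comparisons. At day 14 its level was 2.88, 3.42, 3.09 and 3.60 in MCU-vector fibres, against 4.09, 3.06, 4.12 and 3.05 in wild type fibres. At day 7 it was 3.83, 2.09 and 2.35 in vector fibres, against 2.99, 1.91, 1.99 and 2.61 in wild type fibres. The groups overlapped at both days. Silenced fibres had 4.82, 3.76, 5.16 and 3.11 at day 14, against 4.24, 3.60, 4.50 and 4.42 in transfected controls, and 3.36, 2.01 and 3.64 at day 7, against 2.80, 3.21, 3.70 and 4.12 in transfected controls. These overlapped too. Its spread within groups, an SD of 0.66, was above that of 98.2% of the 16412 genes detected on every array (median 0.25); Pdp2 followed with 0.49 (94.1%). Pdk2 had 0.15, above only 7.27% of those genes, and Pdhb 0.21 (32%). Pdha1, Pdk1, Idh3a, Ogdh and Pdp1 lay between 0.26 and 0.36.

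In order of group means, Pdk4 was highest in silenced fibres of day 14 (4.21) and transfected controls of day 14 (4.19), then in wild type fibres of day 14 (3.58), transfected controls of day 7 (3.46), MCU-vector fibres of day 14 (3.25), silenced fibres of day 7 (3.00), MCU-vector fibres of day 7 (2.76) and wild type fibres of day 7 (2.38). No pair of neighbours in this order was apart by more than the spread within groups. Over the mean of the 4 states, day 14 exceeded day 7 by 0.91 ± 0.23 (SE, 1.88-fold, adjusted p = 0.02), and Pdk4 was the 1 member of 9 called there, beside 6.38% of all genes. Pdha1 was next, at 0.39 (adjusted p = 0.0636); it passed when any of 4 fibres was left out (fibre 4 of wild type day 7, of transfected control day 7 or of silenced day 14, or fibre 3 of silenced day 7). Transfected controls exceeded wild type fibres in Pdk4 by 0.85 ± 0.32 (SE, 1.80-fold, adjusted p = 0.0467), again 1 of 9, beside 27.8% of all genes. That call was lost without any of 11 fibres (fibres 2, 3 and 4 of wild type day 7, 2 and 4 of wild type day 14, 2, 3 and 4 of transfected control day 7, and 1, 3 and 4 of transfected control day 14), with values from 0.74 to 0.89. Slide and day, and slide and transfected control, cannot be told apart in these comparisons. Probe by probe, 5 of 17 passed between transfected control and wild type fibres, beside 26.4% of all probes: besides Pdk4 and the Pdhb probes already given, they were a Pdp1 probe (0.42, adjusted p = 0.0115) and the second Pdp2 probe (0.75, adjusted p = 0.0109).

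Fibres also differed in myosin. Myh4, the heavy chain of type 2B fibres, lay between 5.92 and 7.97 in 29 fibres and at 0.37 in fibre 3 of the silenced day-14 group. Myh1, the type 2X heavy chain, ranged from -1.10 to 7.91. At day 14 Myh1 averaged 6.38 in silenced fibres, 2.34 in transfected controls, 3.44 in MCU-vector fibres and 0.99 in wild type fibres. At day 7 the means were 4.74, 3.78, 3.39 and 4.12 in the same order. Vector groups and their controls overlapped in Myh1 at both days. That fibre 3 had the highest Pdk4, Ogdh, Pdp2 and Pdha1 of all 30 (5.16, 6.67, 1.08 and 4.22), and the summed level of slow or oxidative fibre markers reached 94.7 in its group, against at most 7.44 in transfected controls of the same day and 48.1 in those of day 7. Myh2, of type 2A fibres, was detected in that silenced group and in no other. Erythroid markers ranged from 0.57 to 95.7 in the same group, against 0.58 to 0.92 in its transfected controls. The part of these in the results was not tested. With group means taken off, the correlation with Myh1 over 30 fibres was 0.64 for Pdk4, 0.62 for Ogdh, 0.57 for Pdhb and -0.13 for Pdp1, and that with Myh4 was -0.63 for Pdp2. These correlations are descriptions over arrays that share slides. That of Pdp2 with Myh4 includes fibre 3, which lay far from the others in Myh4 and had the highest Pdp2. It was not computed without that fibre. Without fibre 3, the silencing difference of Pdk4 was -0.38 and of Ogdh -0.14, against -0.22 and -0.06 with it. With Myh4 and Myh1 as covariates the difference of Pdk4 between silenced fibres and transfected controls was -0.89 (adjusted p = 0.044). Without them it was -0.22 (adjusted p = 0.702). Such a fit also adjusts for differences in myosin between the groups compared.

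The enzymes of pyruvate and oxoglutarate oxidation varied together from fibre to fibre. With group means taken off, Pearson's r over 30 fibres was 0.861 for Pdha1 and Idh3a, 0.852 for Pdha1 and Ogdh, 0.835 for Idh3a and Ogdh, 0.831 for Pdhb and Idh3a and 0.755 for the E1 subunits Pdha1 and Pdhb. Pdk1 went with them (0.620 to 0.722), and Pdk4 less closely (0.453 to 0.641). Pdk2, Pdp1 and Pdp2 did so less, between 0.140 and 0.584. The kinases were not alike: r was 0.281 between Pdk1 and Pdk4 and -0.05 between Pdk2 and Pdk4. All values on an array share its scaling and its fibre, so these values are given without a test.

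**Figure D4:**
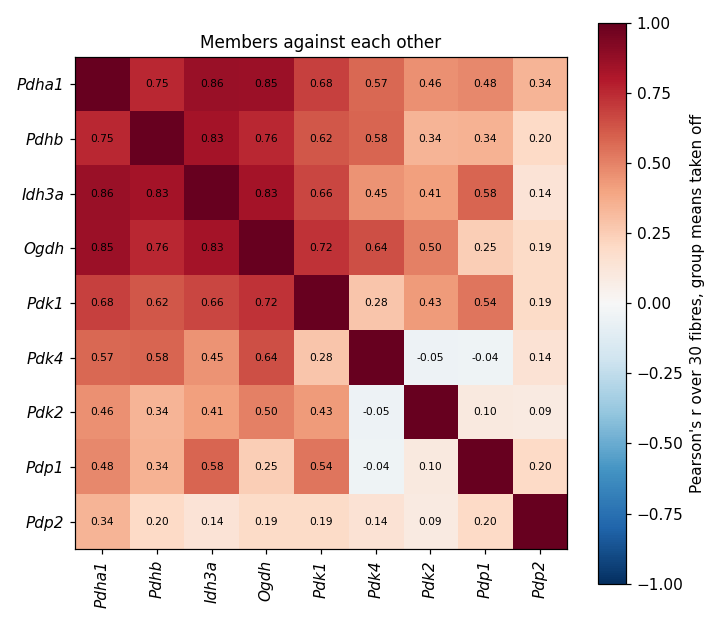
Pearson's r between the 9 measured genes over 30 fibres after the group means were taken off; red is positive and blue negative. Pdha1, Pdhb, Idh3a and Ogdh form a block with r from 0.755 to 0.861. With the genes of this block Pdk2 has r from 0.342 to 0.503 and Pdp2 from 0.140 to 0.342.

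The promoters of 8 of the 10 genes are in the RefSeq table of build GRCm38.p6, from 250 bases before to 50 after the gene's start; Pdp1 and Idh3a are named only. Shown are those of Pdha1, Pdhb and Ogdh, which varied together, and of Pdk4 and Pdk2, the members with the widest and the narrowest spread. They are read 5′ to 3′ on the gene's strand at chrX:160138381-160138680 (minus), chr14:8172943-8173242 (minus), chr11:6291347-6291646 (plus), chr6:5496229-5496528 (minus) and chr11:95041322-95041621 (minus). Capitals mark every match, on either strand, to the CCAAT box (CCAAT), the GC box (GGGCGG) and the E-box (CACGTG).
Pdha1: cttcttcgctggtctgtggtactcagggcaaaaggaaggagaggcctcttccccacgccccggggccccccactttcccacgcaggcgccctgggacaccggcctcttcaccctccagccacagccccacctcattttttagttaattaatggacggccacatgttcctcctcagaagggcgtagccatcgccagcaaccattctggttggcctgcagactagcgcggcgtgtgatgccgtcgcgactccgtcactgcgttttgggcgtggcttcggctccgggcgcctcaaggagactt
Pdhb: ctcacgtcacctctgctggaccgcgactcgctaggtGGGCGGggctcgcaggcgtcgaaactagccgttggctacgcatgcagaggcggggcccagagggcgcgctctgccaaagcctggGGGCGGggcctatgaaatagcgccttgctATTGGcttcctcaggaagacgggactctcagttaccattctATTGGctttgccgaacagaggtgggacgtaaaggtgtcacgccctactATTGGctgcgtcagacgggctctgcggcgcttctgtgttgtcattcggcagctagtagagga
Ogdh: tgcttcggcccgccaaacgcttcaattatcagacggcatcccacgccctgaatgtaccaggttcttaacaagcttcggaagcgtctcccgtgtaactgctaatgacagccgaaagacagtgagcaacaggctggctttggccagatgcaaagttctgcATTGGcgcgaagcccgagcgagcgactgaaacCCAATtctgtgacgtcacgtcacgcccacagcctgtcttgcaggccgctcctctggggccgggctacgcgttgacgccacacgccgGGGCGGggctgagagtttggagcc
Pdk4: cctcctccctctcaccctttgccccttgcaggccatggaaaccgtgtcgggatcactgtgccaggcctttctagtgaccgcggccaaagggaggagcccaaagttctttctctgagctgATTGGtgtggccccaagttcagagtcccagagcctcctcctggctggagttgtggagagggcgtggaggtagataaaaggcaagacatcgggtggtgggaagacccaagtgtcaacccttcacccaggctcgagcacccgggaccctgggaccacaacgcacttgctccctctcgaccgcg
Pdk2: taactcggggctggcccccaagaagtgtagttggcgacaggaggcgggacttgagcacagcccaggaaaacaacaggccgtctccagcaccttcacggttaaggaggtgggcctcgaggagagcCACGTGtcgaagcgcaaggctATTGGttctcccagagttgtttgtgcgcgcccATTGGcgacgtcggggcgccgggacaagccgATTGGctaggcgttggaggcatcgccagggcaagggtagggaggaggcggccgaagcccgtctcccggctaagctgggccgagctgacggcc

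The CCAAT box was in 6 of the 8 promoters, with 3 matches in Pdhb, 3 in Pdk2, 2 in Ogdh, 2 in Pdp2 and 1 each in Pdk3 and Pdk4. Of all 27025 promoters of this length 38% hold at least 1 and 12.1% at least 2. The GC box was in 5 of the 8 (Pdhb, Pdk1, Pdk3, Pdp2 and Ogdh) and in 35.9% of all promoters. The E-box was in Pdk2 and Pdp2 and in 7.24% of all. A forkhead site (GTAAACA), an estrogen-related receptor site (TCAAGGTCA), the nuclear receptor hexamer it contains (AGGTCA) and a TATA box (TATAAA) had no match in these 8 windows; 3.52%, 0.407%, 16% and 14.2% of all promoters hold them. Pdha1, which varied with Pdhb and Ogdh, held none of the 7 motifs. Pdk4 had 12 CpG pairs in its window, more than 59.8% of promoters, while Pdk3, the gene not detected, had 35, more than 93.2%.

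The day difference of Pdk1 had opposite signs in the 2 control states. In transfected controls its level was 0.74, 0.88, 1.42 and 1.26 at day 14, against 0.59, -0.08, 0.21 and 0.46 at day 7. In wild type fibres it was 0.47, -0.19, -0.05 and -0.14 at day 14, against 0.93, 1.24, -0.01 and 1.23 at day 7. Transfected controls of day 14 lay wholly above those of day 7, while the wild type groups overlapped. Day 14 minus day 7 was 0.78 in transfected controls (adjusted p = 0.0716) and -0.83 in wild type fibres (adjusted p = 0.0666), and neither passed by itself. The test of the day difference between the states gave 1.61 ± 0.34 (SE, adjusted p = 0.0126), with Pdk1 the 1 member of 9 called, beside 2.27% of all genes. Within each state, 0 of 9 were called between the days by limma, beside 3.26% of all genes in transfected controls and 2.41% in wild type, with 3 and 2 members under 0.05 unadjusted. In wild type, Pdk1 passed without fibre 3 of day 7 or fibre 1 of day 14. The second Pdk2 probe, 251 bases away from the one used for the gene, had the same signs, with day 14 minus day 7 at 0.64 in transfected controls (adjusted p = 0.0039) and -0.58 in wild type fibres (adjusted p = 0.0102), and the difference of 1.22 passed (adjusted p = 0.00013). It and Pdk1 were the 2 probes of 17 called there, beside 2.14% of all probes. The probe that represents Pdk2 gave 0.06 in transfected controls and -0.10 in wild type fibres. MCU-vector fibres, on the slides of the wild type, had Pdk1 means of 0.22 at day 14 and 0.81 at day 7, and silenced fibres, on the slides of the transfected control, 0.84 and 0.22. Each of the 4 slides held 1 day of 1 pair of states, and slide and day cannot be told apart.

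Partner genes of the same pathway were taken from lists. In MCU-vector against wild type fibres no gene of any list passed, beside 1.13% of all genes, with 13.1% under 0.05 unadjusted. That was 0 of 6 tested partners of pyruvate dehydrogenase (median -0.16, all genes -0.02), 0 of 6 partners of the calcium-sensitive enzymes (median -0.15), 0 of 8 genes of pyruvate supply and other fates (median -0.14) and 0 of 9 regulators of Pdk4 and Pdk2 (median -0.21), with 1, 1, 2 and 2 under 0.05 unadjusted. Idh3g, the gamma subunit of isocitrate dehydrogenase, came closest, at -0.49 (adjusted p = 0.0594, called in 8 of 43 settings), and Pdhx, the subunit that ties E3 to the pyruvate dehydrogenase core, was at -0.37 (adjusted p = 0.118).

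In silenced against transfected control fibres the counts over both days were 0 of 6 (median 0.22, all genes 0.04), 0 of 6 (median -0.03), 2 of 8 higher (median 0.15) and 2 of 9 lower (median -0.21), read against 14.1% of all genes; the lists with none had 1 and 1 under 0.05 unadjusted. The 2 that rose were Gpt, a cytosolic alanine aminotransferase, by 0.63 (adjusted p = 0.0365), and Mpc1, a subunit of the mitochondrial pyruvate carrier, by 0.33 (adjusted p = 0.0412). Mpc1 lay at 4.86, 4.72 and 5.03 in silenced fibres of day 7, above all transfected controls, at 4.08, 4.27, 4.19 and 4.18. At day 14 the groups overlapped. Its partner Mpc2 passed at day 7 (0.56, adjusted p = 0.0396), as did Pdhx (0.52, adjusted p = 0.0347). At day 7 the counts were 2 of 8 genes of pyruvate supply and 1 of 6 partners of pyruvate dehydrogenase, beside 13.4% of all genes.

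The 2 that fell were Ppargc1a, the coactivator PGC-1alpha, at -0.94 (adjusted p = 0.0106), and Foxo1, a forkhead factor known to activate Pdk4 in muscle, at -0.60 (adjusted p = 0.0157). Ppargc1a at day 7 was 3.07, 1.69 and 3.35 in silenced fibres, against 3.42, 3.70, 4.72 and 4.14 in transfected controls, and at day 14 it was 3.29, 2.68, 3.73 and 2.62 in silenced fibres, against 3.50, 3.63, 3.85 and 3.71 in transfected controls. The groups were apart at day 7 and overlapped at day 14. At day 14 Ppargc1a averaged 3.08 in silenced fibres, 3.68 in transfected controls, 3.10 in MCU-vector fibres and 4.04 in wild type fibres. Over both days the MCU vector minus wild type difference was also negative, -0.51 for Ppargc1a and -0.21 for Foxo1, and passed in 0 of 43 settings for each. At day 7 it was the transfected controls that stood apart from the other states: Ppargc1a averaged 2.70 in silenced fibres, 4.00 in transfected controls, 2.44 in MCU-vector fibres and 2.52 in wild type fibres, and Foxo1 averaged 1.49, 2.36, 1.59 and 1.64 in the same order. Pdk4 itself, in the same fibres, differed by -0.46 at day 7 (interval -1.45 to 0.54) and 0.02 at day 14 (interval -0.90 to 0.94). Ppargc1a kept its call without any 1 fibre, but lost it when only the groups compared were fitted (-0.94, adjusted p = 0.0509) and under the replicate block (-0.92, adjusted p = 0.0678). Foxo1 lost it in the same 2 settings (-0.60, adjusted p = 0.0689, and -0.64, adjusted p = 0.162) and without fibre 3 of silenced day 7 (-0.47, adjusted p = 0.0629). Gpt lost it without fibre 2 or 3 of transfected control day 7, 1 or 2 of transfected control day 14, 3 of silenced day 7, or 1 or 3 of silenced day 14 (0.46 to 0.63, adjusted p 0.0514 to 0.124). Mpc1 lost it without fibre 1, 3 or 4 of transfected control day 7, 1 or 2 of transfected control day 14, 1 or 3 of silenced day 7, or 3 of silenced day 14 (0.27 to 0.34, adjusted p 0.053 to 0.106). With Myh4 and Myh1 as covariates Gpt was at 0.25 (adjusted p = 0.334), Mpc1 at 0.17 (adjusted p = 0.331) and Foxo1 at -0.53 (adjusted p = 0.0685). Both Gpt and Mpc1 also lost their calls with median scaling (0.51 and 0.21), array weights (0.55 and 0.30), no filter on dim probes, only the groups compared and the replicate block, and Mpc1 with normexp (0.26) and the mean of its probes (0.31), at adjusted p from 0.055 to 0.231.

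By a rule that took the member with the widest range of group means, genes were ranked by likeness to Pdk4 among 10763 with a symbol and a signal on every array. Over the 30 arrays the highest correlations were those of Olfr62 (0.826), Hspa2 (0.806), Cyth1 (0.742), Sspn (0.737) and Asb15 (0.727). With group means taken off they were those of Arpp21 (0.859), Slc27a1 (0.796), Ankrd2 (0.793), Coq7 (0.791) and Mid1ip1 (0.780). The 2 sets of 5 had no gene in common.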

How the data were processed

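Transcripts were measured in 30 single fibres on 1-colour Agilent mouse arrays. Per the labels' protocols, amplification covered the whole transcriptome and labelling used random primers, so signal was not read as strand-specific. Per the file headers, the authors' deposited intensity values come from Agilent Feature Extraction 10.7.3.1, background-subtracted and detrended within the array and not scaled between arrays; other columns are spot flags for control type, signal above background, saturation and outliers, per the file headers. The deposited series matrix holds the authors' processed intensity on a linear scale, with steps not given in the sources used here, and served as an alternative.

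Control spots and outlier flags were left out, log2 values of spots averaged per probe, and each array's 75th percentile subtracted. A probe was kept where at least 3 arrays of a group had it well above background (33164 of 55681), and the kept probe with the highest mean represented a gene (23342 genes). Names were updated through RefSeq for probes that matched (26425 by accession, 3988 by symbol, 826 by synonym); 24442 kept the file's name. Group means for 8 groups were fitted with limma 3.58.1 in R 4.3.3 and data.table (version 1.17.8), with 22 residual degrees of freedom and 2-sided p-values adjusted by Benjamini-Hochberg at 0.05; an effect over both days averages those of day 14 and day 7. Each probe was also fitted by itself. The script was tested on simulated data. Positions of probes are those of the files, on mm9.

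Members, lists and tests were chosen with earlier results of these data known; comparisons between days were added after levels had been seen. Named beyond the members were Mcu, the myosins and up to 4 genes of each list with the largest statistics. Same-numbered fibres of a vector group and its control correlated between -0.175 and 0.186, above 0.1 in 4 of 14 pairs, and were not taken as pairs. Alternatives were normexp correction (offset 50), other scalings, filters and probe rules, array weights, a replicate block, myosin covariates, the series matrix and leaving out each fibre.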

Additional observations from a re-analysis of the deposited data

Results flagged for a closer look

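Among 54 sets of 4 fibres (9 genes), 4 had a fibre far from the other 3; chance marks about 1 in 20 such sets. Pdk2 was at 6.83 in fibre 4 of wild type day 7, with the others at 6.66 to 6.68, and at 6.64 in fibre 1 of silenced day 14, with the others at 6.48. Pdp1 was at 2.99 in fibre 2 of wild type day 14, with the others at 2.53 to 2.59, and at 2.24 in fibre 3 of wild type day 7, with the others at 3.10 to 3.22. Without that last fibre the Pdp1 difference between MCU-vector and wild type fibres was 0.23, and without the day-14 fibre 0.39, against 0.34 with both.

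Tested differences between effects passed, among the members, for Pdk1 and for probes of Pdk2 and Pdhb. The day difference of Pdk1 was greater in transfected controls than in wild type fibres by 1.61, and that of the second Pdk2 probe by 1.22; each day lay on a slide of its own within a state. For the third Pdhb probe, the effect of the MCU vector exceeded that of silencing by 2.03, in a comparison where transfected controls stood above all other fibres. Among genes of the other lists, the vector effect minus the silencing effect passed for Pdhx (-0.61, adjusted p = 0.0148), Mpc1 (-0.61, adjusted p = 0.0123), Mpc2 (-0.66, adjusted p = 0.0169), Slc25a20, the carnitine-acylcarnitine carrier (-1.15, adjusted p = 0.038), and Lpl, lipoprotein lipase (-3.27, adjusted p = 0.0397), beside 11.2% of all genes. By list that was 1 of 6 partners of pyruvate dehydrogenase, 2 of 8 genes of pyruvate supply and other fates, and 2 of 7 targets of the PPAR receptors. It was 0 of 6 partners of the calcium-sensitive enzymes, 0 of 5 branched-chain genes and 0 of 9 regulators. Lpl scattered widely within groups, from -0.09 to 5.35 in silenced fibres of day 14. Of the separate vector and silencing effects on the named list genes over both days, that of silencing on Mpc1 was the 1 that passed by itself.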

How the results depend on the processing

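No member passed in the MCU-vector or silencing comparisons in most alternatives. Exceptions were 1 member (Pdp1) over both days for the vector with array weights, and for silencing 1 member (Pdhb) with the mean of a gene's probes, both over both days and at day 14, and 1 member (Pdk4) with Myh4 and Myh1 as covariates. Leaving out single fibres gave 0 members in all comparisons of the vectors. Under the replicate block 0 members passed and 125 genes for the vector and 780 for silencing, against 263 and 3292 without it; other gene counts that moved by more than 1.5 times were 510 (normexp), 1850 (array weights) and 536 (myosin covariates) for the vector and 1612 (only the groups compared) for silencing. The causes were not tested.

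Between transfected control and wild type the count was 1, but 0 with quantile normalization, scaling over probes detected on all arrays, no filter or the series matrix, 3 with the mean of probes, and 0 to 1 without single fibres. Between the days it was 1 in wild type with normexp, probes detected on all arrays, array weights or myosin covariates (0 to 1 without single fibres, 0 as reported), 1 in transfected controls with array weights and 2 with myosin covariates (0 as reported), and 2 over the 4 states with normexp or probes detected on all arrays (1 to 2 without single fibres). The difference between the states' day effects called 2 members with the mean of probes, against 1.

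Of 555 single-gene values under alternatives, 489 kept direction and side of the threshold, 49 changed sign, 15 lost and 2 gained a call. Apart from Pdhb in silenced fibres, at -0.91 with the mean of probes, no value with a changed sign that is listed here passed. For the MCU vector, Pdk4 turned to -0.0063 (quantile), -0.0066 (probes detected on all arrays), -0.17 (array weights), -0.15 (myosin covariates) and -0.0068 (series matrix), Pdp2 to -0.021 (mean of probes) and Idh3a to 0.011 (median scaling) and 0.061 (replicate block). Without single fibres Pdk1 ranged from -0.063 to 0.19, Pdk4 from -0.24 to 0.19, Pdp2 from -0.025 to 0.12 and Idh3a from -0.15 to 0.061. For silencing, median scaling, under which the median of all genes was -0.083 (0.039 as reported), gave -0.053 for Pdha1, -0.033 for Pdk2 and -0.095 for Idh3a. Myosin covariates gave -0.17 for Pdha1, -0.040 for Pdhb and -0.23 for Idh3a. Idh3a was also -0.021 with normexp and -0.024 with array weights, and Ogdh 0.016 with scaling over probes detected on all arrays, 0.10 with the mean of probes and 0.0037 with the replicate block. Without single fibres Pdha1 ranged from -0.038 to 0.18, Pdk4 from -0.38 to 0.030, Idh3a from -0.10 to 0.12 and Ogdh from -0.15 to 0.041. The replicate block could not be fitted between days. The share of called genes that were higher under median scaling, scaling over probes detected on all arrays and as reported was 25.1%, 74.5% and 56.7% for silencing, 87.2%, 63.7% and 74.1% for the vector, and 66.9%, 23.9% and 36.9% for transfected control against wild type, where the median of all genes was 0.12, -0.12 and -0.036.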

Other observations

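The branched-chain oxoacid dehydrogenase, a relative of pyruvate dehydrogenase that also has its own kinase and phosphatase, had 0 of 5 genes called by limma in both comparisons over both days. Beside these stood 1.13% of all genes called for the vector and 14.1% for silencing. For the MCU vector 3 of the 5 were under 0.05 unadjusted, a level reached by 13.1% of all genes. They were Bckdha at -0.51 (adjusted p = 0.229), Bckdhb at -0.29 (adjusted p = 0.251) and the kinase Bckdk at -0.33 (adjusted p = 0.248). The median of the list was -0.33, against -0.02 for all genes. For silencing none was under 0.05 unadjusted, beside 30% of all genes, and the median was 0.21.

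Of 7 tested targets of the PPAR receptors, known to move with Pdk4 in muscle, 0 passed over both days for the MCU vector or for silencing. The vector effect minus the silencing effect passed for 2 of 7, Lpl and Slc25a20, as given above. For silencing 4 of the 7 were under 0.05 unadjusted, beside 30% of all genes, and the median was 0.50. Ucp3, a mitochondrial carrier, was at 0.50 (adjusted p = 0.0572) and Slc25a20 at 0.70 (adjusted p = 0.0619). At day 14 Ucp3 was higher in silenced fibres than in transfected controls by 1.07 (adjusted p = 0.0129), 1 of 7 called beside 3.46% of all genes. Transfected controls were the lowest state that day: Ucp3 averaged 2.03 in silenced fibres, 0.96 in transfected controls, 1.37 in MCU-vector fibres and 1.72 in wild type fibres. Silenced fibres, at 1.70 to 2.29, lay within the range of wild type fibres, 1.31 to 2.37. For the MCU vector 2 of the 7 were under 0.05 unadjusted, beside 13.1% of all genes, and the median was -0.16. In transfected controls against wild type fibres 1 of 7 passed, beside 27.8% of all genes: Angptl4, a lipase inhibitor named after its value was seen, fell by 0.26 (adjusted p = 0.0222), and outside the list Ppard, a receptor of this family, rose by 1.11 (adjusted p = 5.78e-05), with slide and state not to be told apart.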
